A study of Mus musculus with 8 samples.

Results

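The genes described here are 35 matrix glycoproteins, proteoglycans and laminins, the non-collagen part of the extracellular matrix, in the epididymal white fat of mice, a visceral depot next to the testis. They were chosen by exact gene symbol from the deposited count table, taking the row with the highest total count where a symbol stood on more than 1 row, which was the case for Fbln1. All 35 had a row among the 31854 of the table, and all 35 were among the 15667 rows with enough counts to be tested. By role they are 9 adhesive glycoproteins, 6 small leucine-rich proteoglycans, 3 large proteoglycans, 9 elastic fibre genes and 8 laminin and nidogen genes.

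The tissue came from mice on a high-fat diet, a diet that both groups shared. One group carried wild-type PPAR-gamma (WT, 4 libraries, replicates 1, 2, 3 and 5). The other carried a knock-in allele in which serine 273 of PPAR-gamma, the nuclear receptor that fat cells need to form, is replaced by alanine (S273A, 4 libraries, replicates 2, 3, 4 and 6). A knock-in changes the receptor in every cell that makes it, so the comparison is not limited to adipocytes. The labels give neither age nor duration of the diet, do not say whether the allele was on 1 or both chromosomes, and do not say that each library is a separate animal. The spread behind each p-value is therefore that between libraries and may be technical.

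The matrix holds fat cells in place and changes as the depot expands. Adhesive glycoproteins such as fibronectin bridge cells and fibres. Small leucine-rich proteoglycans such as decorin bind collagen and set the width of its fibrils. Elastic fibres consist of elastin on a scaffold of fibrillin microfibrils, tied together by fibulins and emilins. Each adipocyte and each capillary is wrapped in a basement membrane, a sheet of laminin trimers and collagen IV linked by nidogens and perlecan, the product of Hspg2. A laminin trimer is made of an alpha, a beta and a gamma chain, and the alpha chain carries the main sites for cell receptors. In the fat depot much of this matrix is made by fibroblasts and progenitors, and basement membrane also by adipocytes and vessels.

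Promoter sequences are shown for the 3 members with the smallest p-values between genotypes, Fmod, Fbln5 and Fbln1, and for Lama2 and Lama5, laminin alpha chains whose upstream sequences look unlike each other. RefSeq entries on GRCm38.p6 were matched for 24 of the 35 members. Each line gives the 100 bases before the transcription start, 5′ to 3′ on the gene's strand, and capitals mark the GC box GGGCGG on either strand.
Fmod, plus strand, chr1:134037154-134037253: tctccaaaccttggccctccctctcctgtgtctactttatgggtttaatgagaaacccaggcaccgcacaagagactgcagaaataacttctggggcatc
Fbln5, minus strand, chr12:101819120-101819219: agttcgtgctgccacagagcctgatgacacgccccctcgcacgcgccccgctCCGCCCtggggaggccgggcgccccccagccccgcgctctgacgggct
Fbln1, plus strand, chr15:85205849-85205948: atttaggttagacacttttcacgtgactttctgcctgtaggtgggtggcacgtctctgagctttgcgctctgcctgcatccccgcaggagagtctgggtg
Lama2, minus strand, chr10:27616943-27617042: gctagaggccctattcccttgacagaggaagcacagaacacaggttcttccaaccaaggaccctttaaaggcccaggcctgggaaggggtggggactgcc
Lama5, minus strand, chr2:180225860-180225959: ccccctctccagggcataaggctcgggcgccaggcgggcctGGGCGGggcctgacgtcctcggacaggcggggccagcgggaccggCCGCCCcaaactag
These stretches held 0 annotated exon bases. For Lama2 the RefSeq start lies inside the gene as GENCODE M21 gives it, which begins upstream at position 27619758. Fmod, Fbln1 and Lama2 had 0 GC boxes in the 100 bases and G or C at 50%, 55% and 58% of positions. Fbln5 had 1 GC box and Lama5 had 2, both with 77% G or C. The whole promoter entry has 300 bases, from 250 before to 50 after the start. In it GGGCGG stood on either strand in 15 of the 24 member genes (62.5%) and in 38.2% of all 27025 genes. Those are all genes with such an entry, whether or not they are expressed in fat. TATAAA was found in 5 members (20.8%), Ecm1, Ogn, Postn, Thbs2 and Tnc, against 15.7% of all genes. CCAAT was found in 9 members (37.5%) against 41.1%. The direct repeat AGGTCANAGGTCA, the textbook PPAR element, was in 0 of the 24 and in 13 of 32851 promoters (0.0396%). A single AGGTCA, which the repeat contains, was in 3 members (12.5%), Fbln5, Postn and Tnxb, against 18.1% of all genes. These are matches of letters in a short window and were not tested as sites.

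The 4 WT libraries held 14880239 to 17266209 counts and the 4 S273A libraries 16161127 to 18194889. The adipocyte markers included Lep at 1386 to 2406 CPM and Adipoq at 522 to 808 CPM over the 8 libraries, while 1 of the 12, Cidea, stood at 0.63 to 2.18 CPM. Of 15 epididymis and testis markers 13 had a row and 1 had enough counts to be tested. Among those not tested, the epididymis gene Adam7 reached 20 counts, with means of 0 CPM in WT and 0.28 CPM in S273A. Some libraries stood apart in cell type markers, given as list scores, the average over a list of each gene's log2 CPM (normalised read count scaled to library size) after subtracting that gene's own mean. WT 2 had the lowest adipocyte score, -0.40, and the lowest endothelial score, -0.33. S273A 4 and S273A 6 had the highest red blood cell scores, 0.60 and 1.18. S273A 6 also held 237 counts of the skeletal muscle myosin Myh4, where the other libraries held 0 to 2. Whole tissue was used, so fewer cells of a type and less RNA per cell cannot be told apart.

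None of the 35 matrix genes passed the test between genotypes. As a group they were strongly expressed, with a median log2 CPM of 7.95 beside 4.45 for all tested rows, though Mfap4 stood at 2.87. Together they took 1.67% ± 0.12 of all WT counts and 1.68% ± 0.14 of all S273A counts (SD over 4 libraries each). By edgeR's quasi-likelihood test, 0 of 35 members were called at an adjusted p under 0.05, where 0% of all tested rows were called, and the adjusted p was 0.9999 for each member. At an unadjusted p under 0.05 the members counted 0, against 1.46% of all rows. Genotypes that did not overlap in CPM were seen in 0 members, against 1.19% of all rows. Estimates were higher in S273A for 27 members and lower for 8, where 50.7% of all tested rows had a positive estimate. Their median log2 fold change was 0.03, beside 0.00 (0.001483) for all tested rows, and it was between -0.01 and 0.09 when each library was left out in turn. The number of positive estimates was 15 without WT 2, 18 without S273A 4 and 18 without S273A 6, so the split depends on single libraries.

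If the libraries are separate animals, the intervals bound the size of a difference that these data could have missed. If not, the spread behind the intervals may be technical and they are too narrow for that use. For 19 of the 35 members the 95% confidence interval lay within a level 25% above WT or the same ratio below it, and for 34 within 1.5-fold. The exception was Fbln1, whose interval reached 1.504-fold. Estimates ran from -0.12 for Fbn1 to 0.22 for Fmod on the log2 scale, and interval bounds from -0.52 to 0.59.

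**Figure D1:**
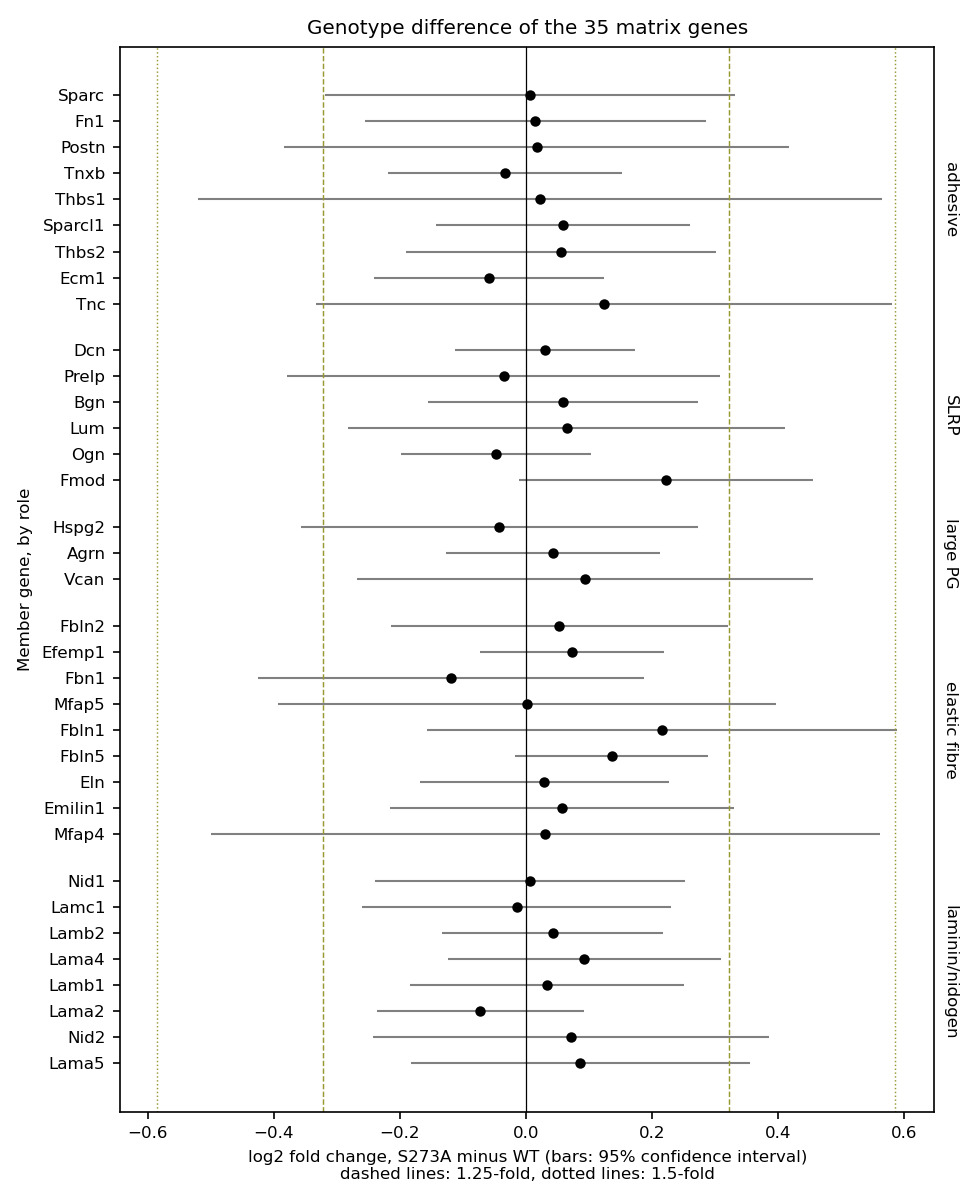
Genotype difference of each of the 35 genes. Points are log2 fold changes, S273A minus WT, on the horizontal axis, with 95% confidence intervals as bars; genes are on the vertical axis by role and by level. Every interval spans 0, and 34 of 35 lie between the dotted lines at 1.5-fold.

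Compared per length, as normalised CPM per kilobase averaged over the 8 libraries, the members spanned from 643 for Sparc to 4.59 for Mfap4. Sparc, a collagen-binding glycoprotein that also handles basement membrane collagen, and decorin (Dcn, 498) led. They were followed by Nid1 at 214, Prelp at 208, Hspg2 at 149.5, Fbln2 at 147 and Fn1 at 130. Sparc and Dcn overlapped over libraries only through WT 2, the lowest library for Sparc. In WT, Sparc was at 642 ± 120 and Dcn at 492 ± 26.97 CPM per kilobase. At the other end, after Lama5 at 10.3, stood Agrn at 9.28, versican (Vcan) at 6.93, tenascin C (Tnc) at 6.41 and Mfap4. The order rests on the deposited gene lengths and can change with the annotation. For Dcn that length was 2104 bases, where the merged exons of GENCODE M21 have 5838.

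**Figure D2:**
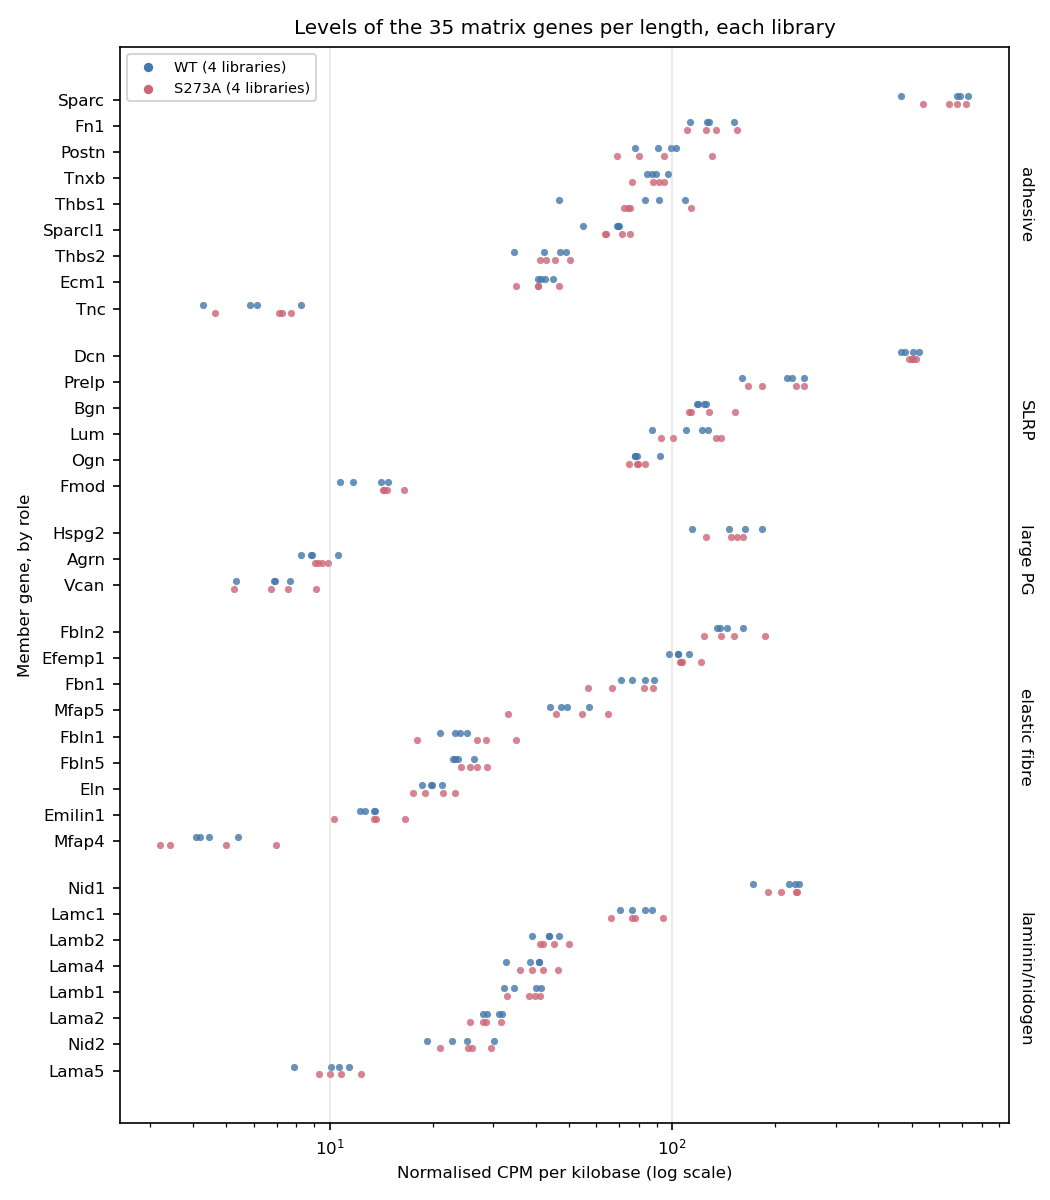
Level of each gene in each library. The horizontal axis is normalised CPM per kilobase on a log scale, genes are on the vertical axis by role, and each point is 1 library, WT in blue and S273A in red. The 2 genotypes overlap for all 35 genes, and levels span from 4.59 for Mfap4 to 643 for Sparc.

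Among the 9 adhesive glycoproteins the median log2 fold change was 0.02, with 7 estimates above 0 and 2 below. Sparc was at 1786, 1229, 1934 and 1828 CPM in WT replicates 1, 2, 3 and 5, and at 1699, 1424, 1898 and 1785 CPM in S273A replicates 2, 3, 4 and 6. WT 2 and S273A 3 were the low libraries, and the others overlapped. The log2 fold change was 0.01 ± 0.15 (SE, exact permutation p = 0.943). Here and below, log2 fold changes are S273A minus WT with edgeR's standard error, and the exact two-sided permutation test compares the log2 CPM of the 4 libraries of each genotype.

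Sparcl1, the relative of Sparc made largely by vessel cells, was at 215, 171, 218 and 217 CPM in WT and at 200.2, 198, 234 and 222 CPM in S273A, in the same library order. WT 2 was again below all others, and the difference was 0.06 ± 0.09 (SE, exact permutation p = 0.629). Ecm1, a secreted binder of perlecan and other matrix proteins, had 77.1, 85.3, 78.8 and 81.0 CPM in WT and 66.5, 77.1, 88.7 and 77.1 CPM in S273A. The S273A libraries lay on both sides of the WT range, with a log2 fold change of -0.06 ± 0.08 (SE, exact permutation p = 0.486).

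Tenascin C and thrombospondin 1, matricellular proteins that are made in remodelling tissue, varied most among the adhesive genes. Tnc was at 68.4, 35.4, 48.4 and 51.0 CPM in WT and at 63.9, 38.4, 60.1 and 58.9 CPM in S273A. The lowest libraries of each genotype, WT 2 and S273A 3, were both under 40 CPM, and the difference was 0.12 ± 0.20 (SE, exact permutation p = 0.6). Thbs1 was at 637, 486, 272 and 535 CPM in WT and at 439, 423, 665 and 434.5 CPM in S273A. Its range was 2.44-fold from WT 3 to S273A 4, the genotype means were 483 ± 154 and 490 ± 117 CPM (SD, n = 4 each), and the log2 fold change was 0.02 ± 0.24 (SE, exact permutation p = 0.886).

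The other adhesive members showed differences no larger than their spread. Fibronectin (Fn1) was at 1600 ± 200 (WT) and 1617 ± 228 CPM (S273A). Tnxb, a tenascin that spaces collagen fibrils, was at 964 ± 60.4 and 942 ± 85.1 CPM, and thrombospondin 2 (Thbs2) at 256 ± 38.4 and 266 ± 23.6 CPM. Periostin (Postn), a matricellular partner of collagen and fibronectin, was at 305 ± 36.4 and 309 ± 88.5 CPM (SD, n = 4 each throughout). S273A held both extremes of Postn, 228 CPM in S273A 3 and 431 CPM in S273A 6.

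The 6 small leucine-rich proteoglycans included both the steadiest member and the one with the smallest p. Their median log2 fold change was 0.04, with 4 estimates above 0 and 2 below. By GENCODE M21 on GRCm38, Dcn (chr10:97479609-97518143) and Lum (chr10:97565128-97572703) lie near each other on the plus strand, and Prelp (chr1:133910304-133921414) and Fmod (chr1:134037254-134048277) lie near each other on opposite strands. Dcn was at 1060, 1005, 976 and 1104 CPM in WT and at 1051, 1064, 1082 and 1036 CPM in S273A. Its SD over the 8 libraries was 0.06 on the log2 scale, the smallest of the 35, and its difference was 0.03 ± 0.06 (SE, exact permutation p = 0.457), with a 95% interval from -0.11 to 0.17.

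Fibromodulin (Fmod), which binds fibrillar collagen and takes part in fibril assembly, was at 40.4, 33.5, 30.6 and 42.3 CPM in WT and at 42.0, 41.2, 47.3 and 40.9 CPM in S273A. WT 1, WT 2 and WT 3 were below every S273A library, WT 1 by a small margin, and WT 5 lay within the S273A range. The log2 fold change was 0.22 ± 0.10 (SE, edgeR p = 0.0598, adjusted p = 0.9999), the largest of the members, and the exact two-sided permutation test gave p = 0.143. Of 8 fits that each left out 1 library, those without WT 1 and without WT 5 gave an unadjusted edgeR p of 0.0425 and 0.0163, and no fit called it after adjustment.

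Osteoglycin (Ogn), a small proteoglycan of connective tissue, was at 198.5, 201, 199 and 236 CPM in WT and at 212, 203, 191 and 201 CPM in S273A. Apart from WT 5 the libraries lay within a narrow band, and the difference was -0.05 ± 0.07 (SE, exact permutation p = 0.686). Lumican (Lum) and biglycan (Bgn), which also coat collagen fibrils, were at 232 ± 36.9 and 419 ± 12.8 CPM in WT and at 242 ± 48.3 and 437 ± 64.9 CPM in S273A. Prelp, which links basement membrane to collagen, was at 758 ± 128 (WT) and 740 ± 131 CPM (S273A). Lum and Prelp were lowest in WT 2 and next lowest in S273A 3.

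Of the 3 large proteoglycans, perlecan (Hspg2) was far above the others. It was at 2082, 1619, 2594 and 2309 CPM in WT, against 2187, 1785, 2279 and 2105 CPM in S273A. WT thus held both the lowest and the highest library. The log2 fold change was -0.04 ± 0.14 (SE, exact permutation p = 0.886). Agrin (Agrn), a basement membrane proteoglycan best known at the nerve-muscle synapse, had 74.4, 69.3, 89.2 and 74.9 CPM in WT and 79.8, 76.4, 77.8 and 83.1 CPM in S273A. All S273A libraries lay inside the WT range, and the difference was 0.04 ± 0.08 (SE, exact permutation p = 0.6). Versican, the large proteoglycan that binds hyaluronan, was at 113, 102, 78.4 and 101 CPM in WT and at 77.3, 99.1, 134 and 111 CPM in S273A. Here S273A held both extremes, with a difference of 0.09 ± 0.16 (SE, exact permutation p = 0.8).

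The 9 elastic fibre genes had the highest group median, 0.05 on the log2 scale, with 8 estimates above 0 and 1 below, and their low and high values stood in the same libraries. S273A 2 was lowest of all 8 libraries for 7 of the 9 and below the gene's mean for 9 of 9, while S273A 4 was highest for 5 and S273A 6 for 3. The elastic fibre score was -0.30 in S273A 2, 0.16 in S273A 4 and 0.21 in S273A 6. In WT it ran from -0.06 to 0.09. The group median was 0.15 without S273A 2 and -0.05 without S273A 6.

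Fibulin 1 (Fbln1), which binds fibronectin and laminin, was at 87.9, 91.5, 79.9 and 95.8 CPM in WT and at 68.3, 109, 133 and 102 CPM in S273A. The S273A libraries lay below (S273A 2) and above (the other 3) every WT library, so that the means were 88.8 ± 6.74 (WT) and 103 ± 26.7 CPM (S273A; SD, n = 4 each). The log2 fold change was 0.22 ± 0.17 (SE, edgeR p = 0.225, exact permutation p = 0.457). Without S273A 2 it was 0.37, with an unadjusted edgeR p of 0.00455, the smallest that any member reached in any setting tried, and it was not called after adjustment.

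Fibulin 5 (Fbln5), which joins elastin to cells and is needed for elastic fibre assembly, was at 156, 154, 160.2 and 177 CPM in WT and at 163, 174, 194 and 182 CPM in S273A. WT 5 lay within the S273A range and the other 3 WT libraries below it. The difference was 0.14 ± 0.07 (SE, edgeR p = 0.0756, exact permutation p = 0.114). Without WT 5 the unadjusted edgeR p was 0.0281, and without S273A 2 it was 0.0296.

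Fibulin 2 (Fbln2), the elastic fibre member with the highest level per length, was at 626, 617, 657 and 731.5 CPM in WT and at 563, 630.3, 689 and 848 CPM in S273A. S273A held both extremes, and the difference was 0.05 ± 0.12 (SE, exact permutation p = 0.8). Mfap4, a microfibril-associated protein, was at 6.59, 6.77, 7.18 and 8.75 CPM in WT and at 5.18, 8.04, 5.51 and 11.3 CPM in S273A. It was the lowest member per length, its S273A libraries spread 2.17-fold, and the difference was 0.03 ± 0.24 (SE, exact permutation p = 0.914).

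Fibrillin 1 (Fbn1), the backbone of microfibrils, had the lowest estimate of all members, -0.12 ± 0.14 (SE, exact permutation p = 0.429). Its level was 1130 ± 110.1 (WT) and 1040 ± 202 CPM (S273A), with S273A 2 lowest at 806 CPM. Elastin (Eln) was at 76.7 ± 4.39 and 78.3 ± 9.91 CPM, Mfap5 at 69.8 ± 7.97 and 69.9 ± 18.8 CPM, and Emilin1, which sits between elastin and microfibrils, at 54.4 ± 2.52 and 56.7 ± 10.8 CPM. Efemp1, also called fibulin 3, was at 212 ± 12.1 and 223.5 ± 15.4 CPM (SD, n = 4 each throughout). In Eln, Mfap5 and Emilin1, as in Fbn1, S273A 2 was the lowest library.

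**Figure D3:**
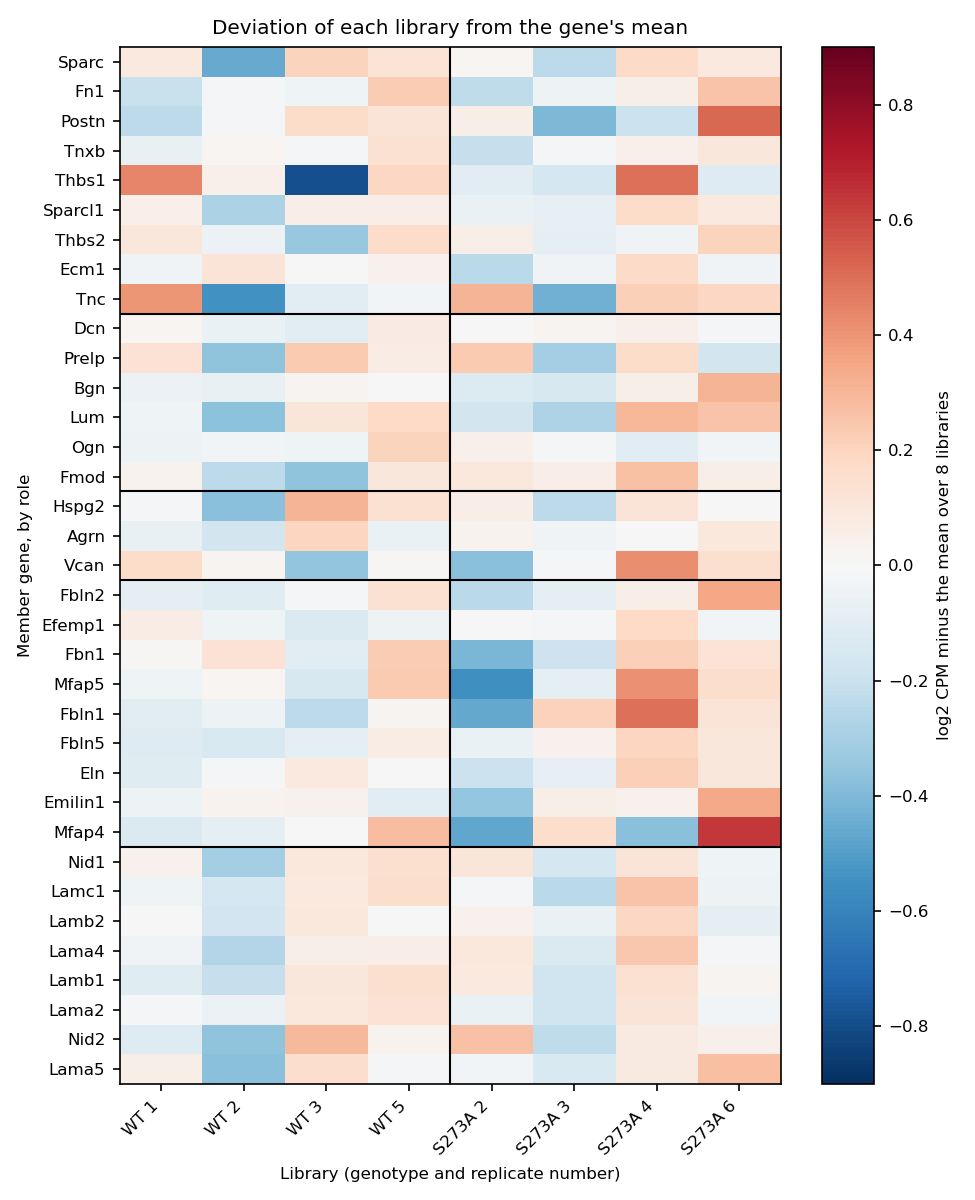
Deviation of each library from each gene's own mean. Columns are the 8 libraries, rows the 35 genes by role, and colour the log2 CPM minus the gene's mean over the 8 libraries. In the elastic fibre block 9 of 9 genes are below their mean in S273A 2, and in the laminin and nidogen block 8 of 8 are below it in both WT 2 and S273A 3.

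The 8 laminin and nidogen genes followed a library pattern unlike that of the elastic fibre genes. WT 2 was lowest for 6 of the 8 and S273A 3 for the other two, and 8 of 8 were below their mean in both libraries. The group score was -0.24 in WT 2 and -0.17 in S273A 3, and 0.15 in S273A 4, the highest. The median log2 fold change was 0.04, with 6 estimates above 0 and 2 below, and it was -0.03 without WT 2. The likeness of WT 2 and S273A 3 was not limited to this group. Of all 35 members 28 were below their mean in WT 2 and 29 in S273A 3. Among the 9 elastic fibre genes these numbers were 6 and 5. Over 13753 genes the deviations of WT 2 and S273A 3 from the genotype means correlated at r = 0.56.

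Nidogen 1 (Nid1), the link between laminin and collagen IV, was at 1512, 1190, 1573 and 1621 CPM in WT and at 1583, 1315, 1595 and 1429 CPM in S273A. The genotype means differed by 0.01 ± 0.11 on the log2 scale (SE, exact permutation p = 0.914). Nidogen 2 (Nid2) was at 161 ± 30.5 (WT) and 169 ± 23.2 CPM (S273A) (SD, n = 4 each).

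Lama2, the alpha chain of laminin in muscle and nerve basement membrane, was at 299.7, 292, 323.5 and 331 CPM in WT and at 291.5, 267, 328 and 298 CPM in S273A. The genotypes overlapped over most of their range, and the difference was -0.07 ± 0.07 (SE, exact permutation p = 0.371). Lama4, the alpha chain of vessels and adipocytes, was at 357, 304, 379 and 379.8 CPM in WT and at 389.6, 333, 431 and 361 CPM in S273A. Its difference had the other sign, 0.09 ± 0.10 (SE, exact permutation p = 0.429). Lama5, the other vascular alpha chain, was at 115 ± 17.4 (WT) and 122 ± 15.0 CPM (S273A). The beta chains were at 355 ± 41.6 and 364 ± 34.0 CPM (Lamb1) and at 243 ± 18.5 and 251 ± 22.1 CPM (Lamb2), and the gamma chain Lamc1 at 605 ± 58.3 and 598.5 ± 86.2 CPM (SD, n = 4 each throughout).

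Per length, the summed alpha and beta chains were close to each other. Including the chains Lama1, Lama3 and Lamb3, which are no members, the alpha chains summed to 80.1 ± 7.10 CPM per kilobase in WT and 81.9 ± 7.63 in S273A. The beta chains summed to 83.8 ± 7.75 and 85.7 ± 7.47 (SD, n = 4 each). Lamc1 alone, with no sum over gamma chains, was at 79.3 CPM per kilobase in WT and 78.5 in S273A. Lama1 was near absent, with 0.02 CPM per kilobase in each genotype and too few counts to be tested.

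The make-up of the alpha chains was compared as shares of their summed level per deposited length. That length was 10391 bases for Lama2, where the merged exons of GENCODE M21 have 16338, so the shares depend on the annotation. Lama2 took 36.1%, 40.02%, 36.5% and 37.4% of it in WT but 34.3%, 35.4%, 34.6% and 35.03% in S273A; the genotypes did not overlap. The means were 37.5% ± 1.76 and 34.9% ± 0.47 (SD, n = 4 each), and the exact two-sided permutation test gave p = 0.0286, the smallest that 4 against 4 libraries allow. After Benjamini-Hochberg adjustment over 8 laminin measures the exact permutation p was 0.229, so the difference did not pass. It ranged from -3.14 to -1.84 percentage points when each library was left out, and the measure was chosen after the values had been seen. Lama4 made up 47.7% ± 0.67 and 49.8% ± 1.75 of the alpha chains (exact permutation p = 0.114, adjusted p = 0.457).

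**Figure D4:**
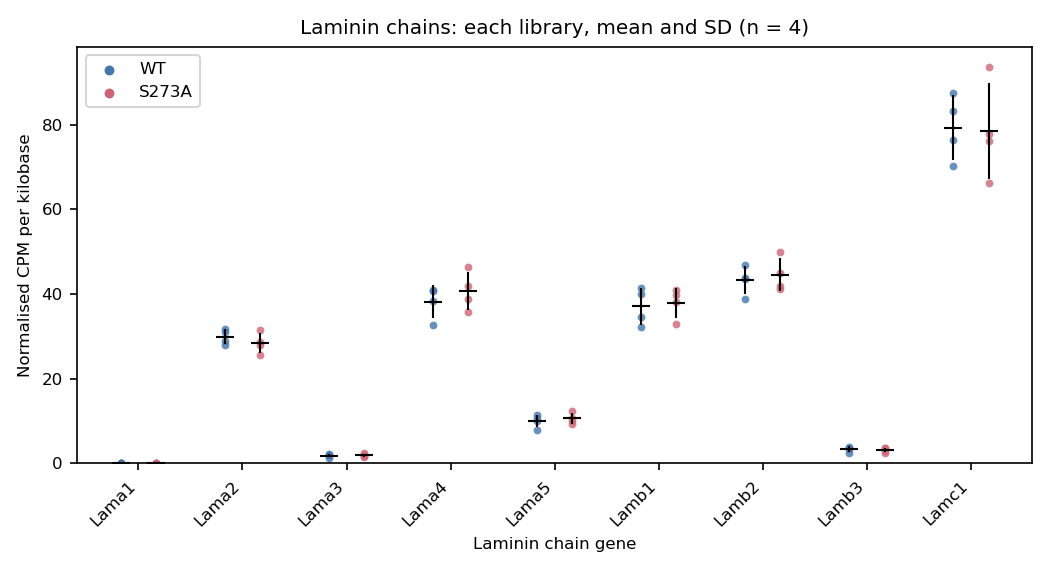
Laminin alpha and beta chains and Lamc1 by genotype. The vertical axis is normalised CPM per kilobase, each point is 1 library, and horizontal marks and bars are the mean and SD of 4 libraries. Lama4 and Lama2 are the leading alpha chains, Lamc1 is the highest of the chains plotted, and WT and S273A overlap for every member.

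Spread between libraries was set beside that of other genes. The median SD of log2 CPM over the 8 libraries was 0.18 for the 35 members, beside 0.11 for the 11005 tested rows within the members' range of mean log2 CPM. Those rows were lower in level, with a median of 5.39 against 7.95 for the members. The widest were Thbs1 at 0.40, Mfap4 at 0.36 and Tnc at 0.34. S273A 4 was highest for 14 of the 35 members, WT 2 lowest for 14 and S273A 2 lowest for 11. The score over all members was -0.14, -0.11 and -0.08 in WT 2, S273A 3 and S273A 2, and 0.14, 0.11 and 0.09 in S273A 4, S273A 6 and WT 5.

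Marker scores of the libraries that stood apart are given beside the members' scores. WT 2, the lowest library for laminins and nidogens, was also lowest for 12 adipocyte markers (-0.40), 12 endothelial markers (-0.33) and 12 pericyte and smooth muscle markers (-0.39). S273A 3, the next lowest for laminins, had scores of -0.14, -0.09 and -0.09 on these lists and the lowest fibroblast score, -0.15. S273A 2, the lowest for elastic fibres, had a fibroblast score of -0.09 and the highest adipocyte score, 0.29. Other libraries were mixed. The adipocyte score and the laminin and nidogen score shared a sign for WT 3 (0.13, 0.12) and S273A 4 (0.20, 0.15). The same held for WT 5 (0.02, 0.08) and S273A 2 (0.29, 0.06). Signs differed for WT 1 (0.05, -0.03) and S273A 6. S273A 6 had the second lowest adipocyte score, -0.15, with a laminin and nidogen score of 0.02. Fibroblast and elastic fibre scores shared a sign for WT 5 (0.09, 0.09), S273A 4 (0.07, 0.16) and S273A 6 (0.06, 0.21). They also did for WT 1 (-0.02, -0.06). Signs differed for WT 2 (0.0045, -0.03) and WT 3 (0.03, -0.06). S273A 3, lowest for fibroblast markers, had an elastic fibre score of 0.00 (0.001182). Fibroblast scores lay between -0.02 and 0.09 in WT and between -0.15 and 0.07 in S273A. The summed fibroblast markers gave 4730 to 6227 CPM (WT) and 4152 to 6229 CPM (S273A). Most of that sum came from collagens, which are themselves matrix genes. Mean levels in WT and S273A were 2380 and 2178 CPM for Col3a1, 1150 and 1064 for Col1a1, and 1080 and 1034 for Col1a2. The summed adipocyte markers gave 6715 to 10340 CPM (WT) and 7816 to 10150 CPM (S273A). Mesothelial markers, those of the lining of the depot, had positive estimates for 14 of 14 genes with a median of 0.28, and none was called after adjustment. Red blood cell markers had positive estimates for 6 of the 6 tested, with a higher median, 0.60, and none was called after adjustment. Estimates were positive for 11 of 12 adipocyte markers (median 0.07), 11 of 12 endothelial (0.09) and 10 of 12 pericyte and smooth muscle markers (0.09). They were positive for 3 of 12 fibroblast markers (median -0.06) and 2 of 13 macrophage markers (-0.07). The summed mesothelial level was 233 to 334 CPM (WT) and 301 to 398 CPM (S273A). S273A 4, which had the highest score over all members, had the highest mesothelial score, 0.41, and the lowest macrophage score, -0.16. Its adipocyte, pericyte and smooth muscle, fibroblast and endothelial scores were 0.20, 0.17, 0.07 and 0.02. WT 2 had the highest macrophage score, 0.20. The part of these cell types in the members' values was not tested.

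**Figure D5:**
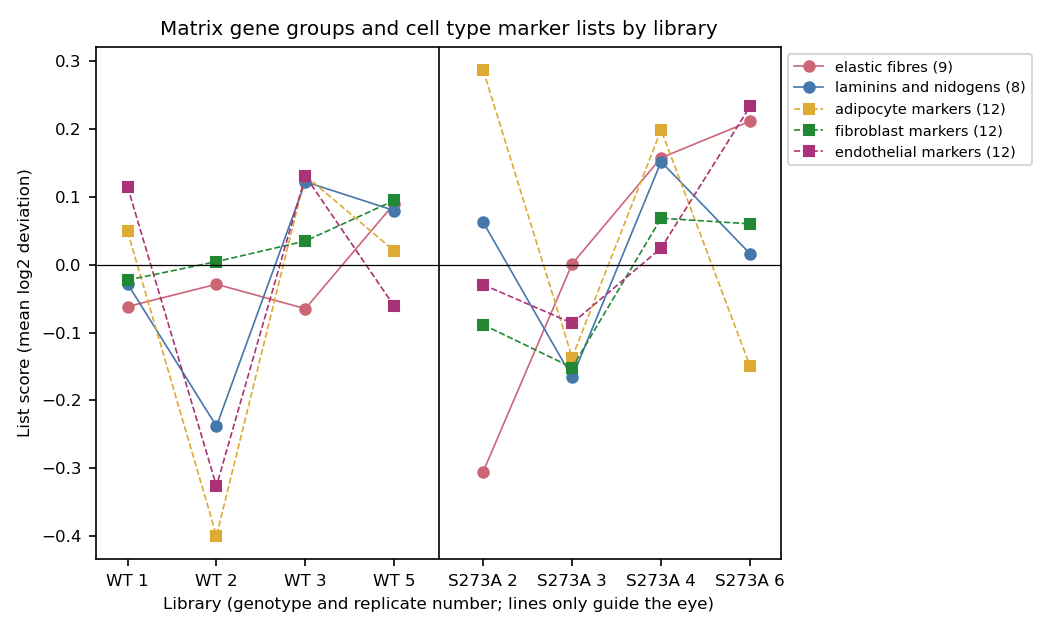
Scores of 2 matrix groups and 3 marker lists by library. The vertical axis is the list score defined above, in log2 units, and the horizontal axis the 8 libraries; list sizes are in the legend, and lines only guide the eye. Laminins and nidogens (-0.24) share the low of adipocyte (-0.40) and endothelial (-0.33) markers in WT 2, while elastic fibres are lowest in S273A 2 (-0.30).

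Genes that work with the members were tested in the same fit. Of 69 other matrix glycoproteins and proteoglycans 55 were tested, 30 with positive and 25 with negative estimates, at a median of 0.02. Of 36 matrix receptors, integrins, dystroglycan and others, 35 were tested, 18 positive and 17 negative, at a median of 0.00 (0.003413). All 35 genes of glycosaminoglycan synthesis, which build the sugar chains of proteoglycans, were tested, 20 positive and 15 negative, at a median of 0.02. No gene of the 3 lists was called by edgeR at an adjusted p under 0.05, and 4 were at an unadjusted p under 0.05, beside 1.46% of all rows.

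Among the receptors, Itga3 and Bcam had the smallest p. Itga3, the alpha chain of the laminin receptor integrin alpha 3 beta 1, was at 20.9, 20.3, 18.8 and 20.7 CPM in WT and at 24.0, 24.4, 22.9 and 24.1 CPM in S273A, without overlap. Its log2 fold change was 0.24 ± 0.06 (SE, edgeR adjusted p = 0.9999). Bcam, a receptor for the laminin alpha 5 chain, was at 38.2 ± 1.94 (WT) and 43.1 ± 2.21 CPM (S273A) (SD, n = 4 each), with a log2 fold change of 0.18 ± 0.06 (SE, edgeR adjusted p = 0.9999). Other receptor genes for laminin had estimates nearer 0, with Itga6 at -0.02, Itgb1 at -0.02, Itgb4 at 0.05, Dag1 at 0.05 and Itga7 at 0.12, and were picked after their values had been seen. Itga3 and Bcam are also expressed in mesothelium, whose markers are given above, and the part of those cells was not tested. Itgav, the alpha chain of integrins that bind fibronectin, was at 347 ± 36.4 and 323 ± 32.9 CPM (edgeR adjusted p = 0.9999).

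Among the other matrix genes, Wisp2 (also called Ccn5), a secreted matricellular protein of fat progenitors, was at 86.8 ± 13.3 (WT) and 68.8 ± 9.23 CPM (S273A), a log2 fold change of -0.33 ± 0.12 (SE, edgeR adjusted p = 0.9999). Podn, a small leucine-rich protein, was at 46.2 ± 5.92 and 54.2 ± 4.10 CPM, 0.23 ± 0.09 (SE, edgeR adjusted p = 0.9999). Epyc, another small leucine-rich proteoglycan, was at 2.62 ± 0.54 and 1.95 ± 0.29 CPM (edgeR adjusted p = 0.9999). In glycosaminoglycan synthesis the smallest p was that of Ext1, a polymerase of heparan sulfate, at 69.2 ± 2.08 and 73.7 ± 2.37 CPM without overlap (edgeR adjusted p = 0.9999). Next came Hs6st2, a sulfotransferase of heparan sulfate, at 3.55 ± 1.26 and 2.59 ± 0.50 CPM, and Csgalnact2, an enzyme of chondroitin sulfate, at 81.3 ± 4.85 and 76.4 ± 3.20 CPM.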

How the data were processed

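RNA from epididymal fat was sequenced as non-directional, ribosome-depleted libraries, per the labels' protocols, so a gene's reads cannot be separated from those of an antisense neighbour. Of the 35 members, 12 share exon bases with another GENCODE M21 gene, most of them few; Fbn1 shares 20.1% (with Gm9913), Prelp 9.68% and Nid2 8.45% (with Rtraf). The authors deposited whole-number read counts per gene for all 8 libraries, with a column of gene lengths in bases. The submitters' processing notes name HISAT2 2.0.5, featureCounts 1.5.2, Picard 2.9.2, bcl2fastq 2.20.0, edgeR 3.3.0 and build mm10, without their roles; the annotation version is not given in the sources used here.

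Deposited counts were tested as they stand with edgeR 4.0.16 (R 4.3.3): filterByExpr with its defaults, TMM scaling, glmQLFit with the robust option and glmQLFTest, genotype as the only term, and Benjamini-Hochberg adjustment over all 15667 tested rows. The F statistic gave the standard errors and 95% intervals. The script was tested on simulated data. Levels are CPM on TMM-scaled library sizes, and CPM per kilobase uses the deposited length. Log2 CPM for scores and spread has a prior count of 2. Alternatives used DESeq2 1.42.0 and limma 3.58.1. No 2 libraries agreed within sampling noise.

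Described in full were members without overlap or at an unadjusted p under 0.05, of which there were 0, the 2 smallest p and the highest level per length in each role, and the 3 largest spreads. In each related list the 3 smallest p at a mean log2 CPM of at least 1 were named. The members and lists were chosen with earlier results of these data known. Pairwise correlations between members, planned as a description, are not reported. Some laminin results are not reported here.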

Additional observations from a re-analysis of the deposited data

Results flagged for a closer look

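Of 70 groups, each 1 member in 1 genotype, 4 held a library whose gap to the nearest other was above Dixon's 95% limit for 4 values, and chance gives about 1 in 20 groups. Sparcl1 was at 171 CPM in WT 2, where the other WT libraries were at 215 to 218 CPM. WT 2 was also low in adipocyte, endothelial and pericyte markers. Thbs1 was at 665 CPM in S273A 4, against 423 to 439 CPM in the others of that genotype, and Efemp1 at 246.5 CPM in the same library, against 214 to 217 CPM. Ogn was at 236 CPM in WT 5, against 198.5 to 201 CPM. The part of cell type in these values was not tested.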

How the results depend on the processing

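No member was called after adjustment in any of the alternatives run, which were size factors by RLE, total counts only, no filter, DESeq2, limma-voom, no robust option, counts summed over rows of a symbol, a replicate block, and leaving out each library. Members at an unadjusted p under 0.05 numbered 0 in the reported fit, 1 without the filter (Fmod), and 0 to 2 over the 8 fits without 1 library. Members with positive estimates numbered from 15 (without WT 2) to 30 (without WT 5) over those fits, beside 27, and the median log2 fold change ran from -0.0061 to 0.09. The sign was the same in 490 of 560 member estimates under alternatives, and 8 members kept their sign in each alternative. With limma-voom the sign turned for Postn (-0.016), Mfap4 (-0.040) and Mfap5 (-0.036). Leaving out 1 library turned the sign of 27 members, whose log2 fold changes ran over Fn1 -0.074 to 0.098, Sparc -0.12 to 0.089, Sparcl1 -0.019 to 0.10, Postn -0.19 to 0.14, Tnc -0.016 to 0.30, Tnxb -0.073 to 0.026, Thbs1 -0.17 to 0.19, Thbs2 -0.034 to 0.12, Ecm1 -0.13 to 0.0071, Lum -0.037 to 0.17, Bgn -0.044 to 0.12, Ogn -0.073 to 0.015, Prelp -0.15 to 0.061, Vcan -0.044 to 0.22, Hspg2 -0.16 to 0.064, Agrn -0.0044 to 0.12, Eln -0.043 to 0.095, Fbln2 -0.068 to 0.13, Mfap4 -0.23 to 0.17, Mfap5 -0.15 to 0.15, Emilin1 -0.058 to 0.17, Lama5 -0.013 to 0.16, Lamb1 -0.027 to 0.10, Lamb2 -0.016 to 0.086, Lamc1 -0.11 to 0.065, Nid1 -0.083 to 0.067 and Nid2 -0.027 to 0.19. These fits use fewer libraries, and the cause of each turn was not tested. Counting depth limited Mfap4 most, with 7.32 CPM in WT.

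With the replicate number as a block, only replicates 2 and 3 occur in both genotypes, so the genotype estimate rests on those 4 libraries. Members with an unadjusted p under 0.05 then numbered 1 (Fmod), and 18 estimates were positive. Under the block the sign turned for Fn1 (-0.11), Postn (-0.25), Lum (-0.093), Bgn (-0.11), Ogn (0.051), Prelp (0.029), Vcan (-0.033), Agrn (-0.011), Eln (-0.17), Fbln2 (-0.096), Mfap4 (-0.11), Mfap5 (-0.25) and Emilin1 (-0.19). The labels do not say that equal numbers are pairs, and correlations between libraries cannot settle it. Deviations from the genotype means correlated at r = -0.10 for replicate 2 and -0.28 for replicate 3. Between libraries of unlike number, r ran from -0.53 (WT 5 with S273A 3) to 0.56 (WT 2 with S273A 3). These values are across 13753 genes, which are not independent replicates.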
